A study of Arabidopsis thaliana with 18 samples.

Results

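The response of wild-type Arabidopsis thaliana seedlings to auxin was measured by RNA-seq in 6 of the 18 libraries of the series, 3 of seedlings treated with indole-3-acetic acid (IAA, the main natural auxin) and 3 of mock-treated seedlings. The 6 were chosen by their labels alone. Wild type (Wt) is the Columbia accession Col-0, with no transgene or mutation in its labels. Whole seedlings, 4 d old and grown in continuous light, were moved from agar plates into liquid medium for 2 h. The IAA seedlings received 10 μM IAA by the study's methods, whereas the labels give the dose as 10 mM. The mock seedlings received an equal amount of ethanol, the solvent. The series also holds aff1-1, which carries a point mutation, and aff1-3, an insertion line that the labels call aff1-2. Both are alleles of the F-box gene AFF1, grown and treated alike (3 libraries per treatment). These 12 libraries shared in the estimate of the spread and are described only where a gene's IAA response differed from that in Wt.

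Auxin is perceived in the nucleus by the F-box proteins TIR1 and AFB1 to AFB5, which bind auxin together with Aux/IAA repressors and mark these for breakdown. Aux/IAA proteins, with the TOPLESS co-repressors, hold AUXIN RESPONSE FACTOR (ARF) transcription factors in check, so their loss frees ARFs to act on target genes. Early targets include the Aux/IAA genes themselves, GH3 genes, whose enzymes conjugate IAA to amino acids, and SAUR genes, which encode small proteins known for promoting cell expansion. In seedlings auxin is known for starting lateral roots, slowing growth of the main root and promoting ethylene synthesis.

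Total counts were 16901849, 31293515 and 21699068 in the IAA libraries and 22904260, 23785094 and 36102396 in the mock libraries. Levels are given as CPM (counts scaled to a common library size) with TMM-scaled library sizes, which compare a gene between libraries and not genes of different length. Spearman correlations within a group were 0.9873 to 0.9943. By the study's methods each line was treated 3 times. The labels do not say which libraries share a batch of seedlings, so p-values measure the spread between these libraries. Plastid genes took 1.55 to 1.64% of counts in IAA libraries and 1.32 to 1.47% in mock libraries, and mitochondrial genes 0.916 to 1.01% in IAA libraries and 0.646 to 0.907% in mock libraries. All 12 root markers and all 12 shoot markers listed for a whole seedling were detected. Root markers summed to 2955 to 3299 CPM in IAA libraries against 3235 to 4315 CPM in mock libraries. Shoot markers summed to 48552 to 50763 CPM in IAA libraries against 49583 to 57769 CPM in mock libraries. Each sum was mostly 1 gene and does not stand for the other markers. BGLU23 alone held 2888, 3105 and 2759.8 CPM in IAA libraries and 3038, 3300.2 and 4129 CPM in mock libraries. RBCS1A alone held 44651, 46602 and 44739 CPM in IAA libraries and 45048, 53175 and 52346 CPM in mock libraries. In whole seedlings, fewer cells of a type and less RNA per cell cannot be told apart.

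Mock library 2 stood apart for long transcripts. Its median deviation from the mean of the 6 libraries was -0.33 on the log2 scale for transcripts of 3 to 4 kb and -0.35 over 4 kb. The IAA libraries lay at 0.08 to 0.13 and 0.11 to 0.17 in these classes. The median log2 fold change (IAA over mock) was 0.28 over 4 kb and -0.04 under 1 kb, and 0.18 and 0.04 without mock library 2. Calls also differed with length, at the threshold given below. Of genes of 1 to 2 kb 4.99% rose and 6.13% fell, of those of 3 to 4 kb 5.41% and 0.843%, and over 4 kb 2.16% and 0.27%. The shares over all genes set beside the lists below are not split by length, so few falls in lists of long genes cannot be judged by them. List members were also tested with mock library 2 left out, and calls lost in that way are given below by gene. Other values without this library are not given here.

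**Figure D1:**
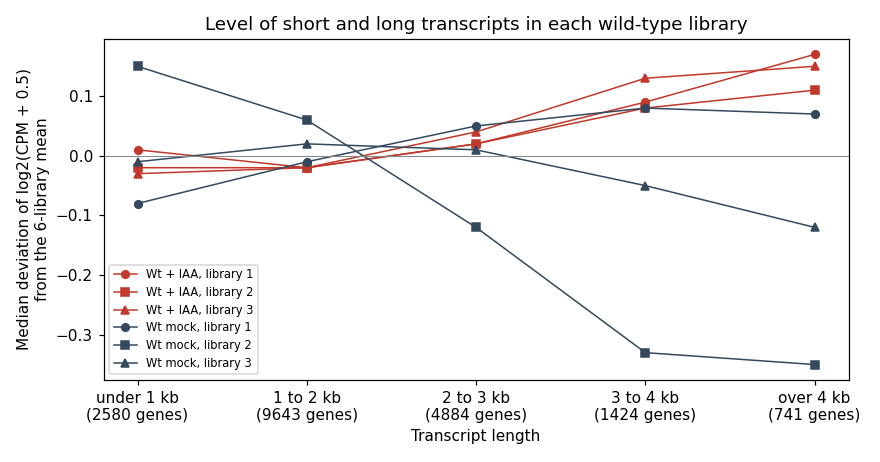
Median deviation of each Wt library from the mean of the 6 libraries, in log2(CPM + 0.5) (y axis), by class of transcript length (x axis). Lines join the classes of 1 library, IAA libraries in red and mock libraries in dark blue. Mock library 2 lies at -0.35 for transcripts over 4 kb, where the IAA libraries lie at 0.11 to 0.17.

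IAA changed the level of 1873 of 19383 genes tested (9.66%) at a Benjamini-Hochberg adjusted p below 0.01 by edgeR's quasi-likelihood test, the threshold used throughout. Of these 954 rose (4.92% of genes tested) and 919 fell (4.74%). IAA and mock libraries did not overlap in 953 of the genes that rose and 918 of those that fell. With 3 libraries a group this follows largely from the threshold and is no separate result. Some genes that did not pass, such as TPL and ACT7, also showed no overlap. The share over all genes tested is not given here. The median log2 fold change was 0.94 among risen genes, -0.80 among fallen genes and 0.005 over all genes tested. At least 2-fold changes were reached by 442 risen and 333 fallen genes, and at least 8-fold changes by 57 and 19. Together the genes that rose took 46583, 46473 and 46084 CPM in IAA libraries against 23413, 24075 and 24936 CPM in mock libraries, without AT2G41450, which is described below. The genes that fell took 42729, 44538 and 42293 CPM in IAA libraries against 61139.6, 67572 and 69935 CPM in mock libraries. Genes with a single exon made up 26% of risen and 25.2% of fallen genes, beside 16.1% of all genes tested.

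**Figure D2:**
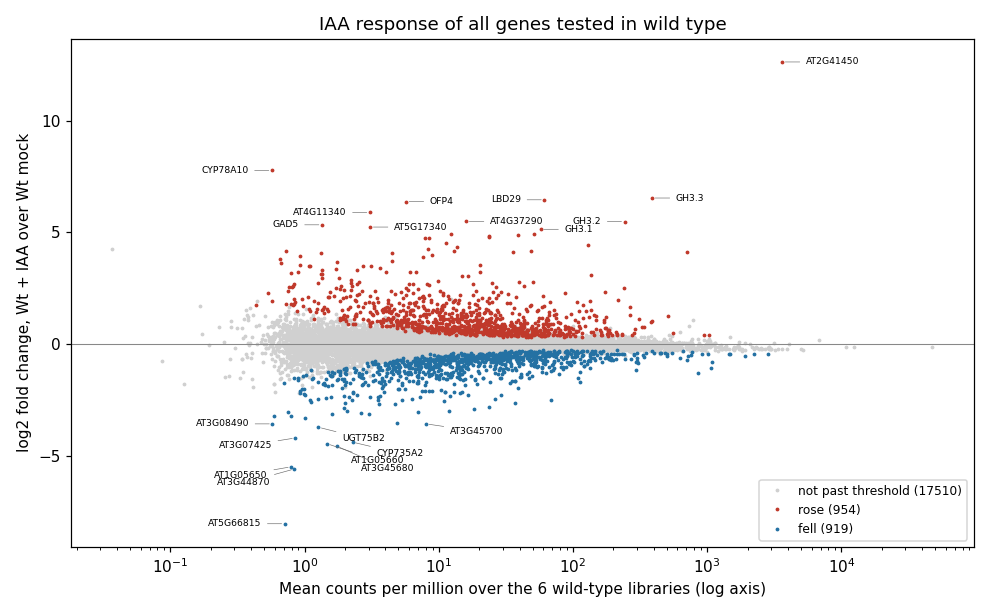
Log2 fold change of IAA over mock (y axis) against mean CPM over the 6 Wt libraries (x axis, log axis) for each gene tested, with the 954 genes that rose in red, the 919 that fell in blue and the others in grey. Labels mark the 10 largest rises, the 10 largest falls and AT2G41450, whose value of 12.63 comes from 1 library.

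The largest rises included enzymes of auxin conjugation and transcription regulators. CYP78A10 (AT1G74110), a cytochrome P450, had 19, 45 and 21 counts in IAA libraries against 0, 0 and 0 in mock libraries, at least 32.8-fold higher (against 3 counts over the mock group, for counting error only). GH3.3 (AT2G23170), which conjugates IAA to amino acids, had 779, 789 and 743 CPM in IAA libraries against 6.31, 7.3 and 10.9 CPM in mock libraries, a 94.3-fold difference (log2 fold change 6.54 ± 0.21 SE, adjusted p = 1.33e-15). LBD29 (AT3G58190), a transcription factor of lateral root initiation, had 118, 123 and 123 CPM in IAA libraries against 1.04, 1.34 and 1.65 CPM in mock libraries, 90.2-fold higher (log2 fold change 6.46 ± 0.22 SE, adjusted p = 3.80e-15). The genes named here were chosen to have no overlap between IAA and mock libraries, so that separation is no separate result. In Wt, CYP78A10 exceeded 1 CPM, the level needed for testing, only in IAA libraries. OFP4 (AT1G06920), an OVATE family regulator, had 11, 11.2 and 11.8 CPM in IAA libraries against 0.0418, 0.126 and 0.195 CPM in mock libraries, with a log2 fold change of 6.38 and of 6.99 without mock library 3. AT4G11340, annotated in the TIR-NBS-LRR family of disease resistance proteins, was 64.7-fold higher, the uncharacterized AT4G37290 46.9-fold, and AT5G17340, annotated as a putative membrane lipoprotein, 40.5-fold. GH3.2 and GH3.1 were 45.1-fold and 35.6-fold higher. GAD5, named as a glutamate decarboxylase, had 57, 65 and 60 counts in IAA libraries against 1, 0 and 4 in mock libraries, with a log2 fold change of 5.34 and of 6.63 without mock library 3.

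The largest falls without overlap between IAA and mock libraries were in genes of low level. This follows in part from the choice, since a gene needs more than 1 CPM in only some group to be tested. In Wt, AT5G66815, AT3G44870 and AT1G05650 exceeded that level only in mock libraries. AT5G66815, an uncharacterized gene, had 0, 0 and 0 counts in IAA libraries against 37, 52 and 19 in mock libraries, at least 31.1-fold lower (against 3 counts over the IAA group). AT3G44870, annotated as a methyltransferase, had 1, 0 and 1 counts in IAA libraries against 49, 56 and 19 in mock libraries, and the ratio of mock over IAA was 53.5 (exact 95% counting interval 14.5 to 447). AT1G05650, annotated as pectin lyase-like, had 2, 0 and 0 counts in IAA libraries against 65, 40 and 9 in mock libraries, a ratio of 49.2 (13.3 to 411). AT1G05660, its neighbour and of the same annotation, had 1, 7 and 1 counts in IAA libraries against 97, 72 and 52 in mock libraries. CYP735A2, the cytochrome P450 that makes trans-zeatin cytokinins, had 0, 0.284 and 0.262 CPM in IAA libraries against 4.51, 4.32 and 4.33 CPM in mock libraries, 24.1-fold lower (log2 fold change -4.39 ± 0.46 SE, adjusted p = 3.13e-07). AT3G45680 and AT3G45700, both annotated as major facilitator proteins, were 28.5-fold and 12.4-fold lower. The glucosyltransferase UGT75B2 was 12.1-fold lower, and AT3G07425 and AT3G08490 were 19.3-fold and 13.4-fold lower. At such counts the log2 fold changes moved with single libraries. That of AT3G44870 was -5.59 and -4.88 without IAA library 2, that of AT1G05650 -5.49 and -8.18 without IAA library 1, and that of AT1G05660 -4.46 and -5.69 without IAA library 2. That of AT3G45680 was -4.57 and -5.95 without IAA library 2, that of UGT75B2 -3.72 and -4.31 without IAA library 1, and that of AT3G08490 -3.57 and -4.26 without IAA library 2.

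Among the most-read genes that passed, changes were small. AT5G64100, a peroxidase, had 1126, 1195 and 1196 CPM in IAA libraries against 815, 878 and 955 CPM in mock libraries, and GSTF8, a glutathione S-transferase, had 1077, 1104 and 1043 CPM in IAA libraries against 782, 879.7 and 802 CPM in mock libraries, 1.33-fold and 1.31-fold higher. RBCS1B, a Rubisco small subunit, had 1850.3, 1957 and 1917 CPM in IAA libraries against 2358, 2701 and 2659.8 CPM in mock libraries, 1.35-fold lower (log2 fold change -0.43 ± 0.08 SE, adjusted p = 0.000236). AT2G45180 and AT3G16420, named PBP1, were 1.38-fold and 1.43-fold lower. The call of AT5G64100 was lost without mock library 1 (adjusted p = 0.0215), IAA library 2, IAA library 3 or mock library 2, that of GSTF8 was lost with any 1 library left out (adjusted p = 0.0441 without IAA library 2), that of AT2G45180 without mock library 3 (0.0134) or IAA library 3 and that of PBP1 without mock library 3 (0.0267), IAA library 1, IAA library 3 or mock library 2.

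The largest fold change of all rested on 1 library. AT2G41450, annotated as an N-acetyltransferase, had 688174 counts in IAA library 2, or 2.2% of that library, and 22 and 24 counts in the other IAA libraries, against 18, 38 and 39 counts in mock libraries. Its log2 fold change of 12.63 (adjusted p = 0.000539) became -0.01 (adjusted p = 0.99) without IAA library 2. In the 17 other libraries of the series it had 9 to 39 counts.

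The promoters of the 3 largest rises and the 2 largest falls are shown because auxin-responsive starts are known for TGTC elements, the letters to which ARFs bind, of which TGTCTC and TGTCGG are well studied. Each runs 5′ to 3′ on the strand of its gene, from 250 bases before the annotated start to 50 bases after it, in RefSeq's TAIR10.1. Capitals mark TGTCTC and TATAAA on either strand. The windows are chr1:27868319-27868618 (minus strand) for CYP78A10, chr2:9866513-9866812 (minus strand) for GH3.3, chr3:21549523-21549822 (minus strand) for LBD29, chr5:26677115-26677414 (plus strand) for AT5G66815, chr3:16381969-16382268 (plus strand) for AT3G44870.
CYP78A10: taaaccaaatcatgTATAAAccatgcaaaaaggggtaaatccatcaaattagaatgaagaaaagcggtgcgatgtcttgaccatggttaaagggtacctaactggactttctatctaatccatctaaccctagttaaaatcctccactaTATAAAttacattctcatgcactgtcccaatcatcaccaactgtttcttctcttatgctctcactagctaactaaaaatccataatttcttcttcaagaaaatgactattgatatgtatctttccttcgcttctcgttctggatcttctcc
GH3.3: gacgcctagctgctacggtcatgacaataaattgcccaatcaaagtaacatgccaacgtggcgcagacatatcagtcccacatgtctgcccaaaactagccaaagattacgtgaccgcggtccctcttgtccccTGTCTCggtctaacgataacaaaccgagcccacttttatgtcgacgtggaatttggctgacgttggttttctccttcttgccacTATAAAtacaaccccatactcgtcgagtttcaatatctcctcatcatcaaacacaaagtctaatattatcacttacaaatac
LBD29: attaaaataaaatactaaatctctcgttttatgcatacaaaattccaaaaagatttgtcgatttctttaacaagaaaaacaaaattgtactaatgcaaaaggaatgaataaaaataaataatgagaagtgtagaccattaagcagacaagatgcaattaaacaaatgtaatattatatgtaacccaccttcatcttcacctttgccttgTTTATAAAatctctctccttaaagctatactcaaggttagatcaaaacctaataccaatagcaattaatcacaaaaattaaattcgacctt
AT5G66815: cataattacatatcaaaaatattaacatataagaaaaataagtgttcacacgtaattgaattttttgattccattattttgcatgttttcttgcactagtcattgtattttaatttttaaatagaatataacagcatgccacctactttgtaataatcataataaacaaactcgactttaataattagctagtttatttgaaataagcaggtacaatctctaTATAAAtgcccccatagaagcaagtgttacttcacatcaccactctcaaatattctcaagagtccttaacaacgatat
AT3G44870: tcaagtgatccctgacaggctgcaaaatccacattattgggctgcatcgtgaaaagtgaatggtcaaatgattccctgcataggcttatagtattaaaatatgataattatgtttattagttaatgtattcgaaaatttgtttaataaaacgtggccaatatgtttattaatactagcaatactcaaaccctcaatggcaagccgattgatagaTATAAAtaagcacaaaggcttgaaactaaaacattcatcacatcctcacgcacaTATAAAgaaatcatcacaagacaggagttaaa

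TGTCTC was found in the window of GH3.3, 116 bases before the start, and not in the other 4. TGTCNN, the core followed by any bases and so including TGTCTC, was found in all but the window of AT5G66815. TATAAA was found in all 5, 32 bases before the start in GH3.3 and 28 before it in AT5G66815. Over the 19271 tested genes with a window, TGTCTC stood on either strand in 17.3% of windows of risen genes and 13.7% of fallen genes, beside 13.6% of all. Among the 57 genes at least 8-fold higher it stood in 22.8%. TGTCGG stood in 5.87% of risen, 5.77% of fallen and 5.66% of all windows, and TGTCNN, which covers both elements, in 82.7%, 82% and 81.4%. The G-box CACGTG stood in 8.39%, 6.64% and 8.85%, and TATAAA in 56%, 61.5% and 52.1%. These shares are descriptions, with no test.

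Aux/IAA genes rose as a family, with 21 of 26 tested members higher, 1 lower and 4 not past the threshold. Of all genes tested 4.92% rose and 4.74% fell. Their median log2 fold change was 1.23, beside 0.005 over all genes, and their summed level was 3536 to 3633 CPM in IAA libraries against 1419 to 1667 CPM in mock libraries. IAA29 had 74.1, 78.8 and 73.6 CPM in IAA libraries against 2.55, 2.35 and 2.73 CPM in mock libraries (log2 fold change 4.88 ± 0.16 SE, adjusted p = 3.59e-15). IAA5 had 48.6, 45.5 and 42.5 CPM in IAA libraries against 1.75, 1.43 and 1.51 CPM in mock libraries, and IAA30, whose protein lacks the degron of most Aux/IAA proteins, 21.9, 23.1 and 20 CPM in IAA libraries against 0.877, 1.13 and 0.809 CPM in mock libraries. These 3 were near 1 to 3 CPM in mock libraries. IAA19 was 21.6-fold higher, IAA1 5.05-fold, IAA7 2.37-fold and IAA17 1.38-fold. IAA14 and SHY2 (IAA3), whose gain-of-function forms block lateral roots, were 2.64-fold and 1.67-fold higher. IAA28 went the other way, with 35.8, 37 and 38.2 CPM in IAA libraries against 69.8, 78.5 and 68 CPM in mock libraries (log2 fold change -0.96 ± 0.08 SE, adjusted p = 5.17e-09). IAA12 (0.31), IAA31 (0.28), IAA8 (0.25) and IAA27 (-0.32) did not pass (log2 fold changes in parentheses, as below). The call of IAA16 was lost without mock library 1 (adjusted p = 0.0179), IAA library 2 or IAA library 3 and that of IAA26 with any 1 but mock library 3 left out (0.0528 without IAA library 3).

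Receptor genes were not called. Of 6 TIR1/AFB genes 0 rose by edgeR (0 at an unadjusted p below 0.05, 0 by limma and 0 by DESeq2) and 0 fell (0 at an unadjusted p below 0.05, 0 by limma and 0 by DESeq2), with log2 fold changes between -0.20 in AFB1 and 0.22 in AFB4. Of 5 TOPLESS genes 0 rose (1 at an unadjusted p below 0.05, 0 by limma and 0 by DESeq2) and 0 fell (0 at an unadjusted p below 0.05, 0 by limma and 0 by DESeq2), at 0.22 to 0.44. In each of the 5 mock library 2 was the lowest library. With each library left out, mock library 2 among them, 0 of the 5 rose and 0 fell. The log2 fold changes without mock library 2 are not given here. Of 15 ARF genes 5 rose and 0 fell by edgeR (3 at an unadjusted p below 0.05, 0 by limma and 0 by DESeq2). By edgeR 4.92% of all genes tested rose and 4.74% fell. ARF19, an activator in lateral root formation, had 26, 25.5 and 27.5 CPM in IAA libraries against 7.56, 6 and 8.48 CPM in mock libraries (log2 fold change 1.83 ± 0.19 SE, adjusted p = 1.96e-07). ARF16, a repressor known from the root cap, had 28.9, 25.9 and 23.5 CPM in IAA libraries against 12.8, 12.5 and 12.1 CPM in mock libraries (log2 fold change 1.06 ± 0.12 SE, adjusted p = 1.03e-06). ARF4, a repressor of leaf polarity, had 25.4, 24 and 23.3 CPM in IAA libraries against 14.2, 9.74 and 16.3 CPM in mock libraries. The calls of ARF19 and ARF16 held with each library left out and those of the other 3 did not. The call of ARF4 was lost without mock library 2 (adjusted p = 0.0124), that of ARF5 with any 1 but mock library 1 left out (0.0549 without mock library 3) and that of ARF2 without mock library 2 (0.0289), IAA library 2 or IAA library 3. ARF7, the close relative of ARF19, did not pass (0.22).

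Genes that take IAA out of the active pool differed by route: most GH3 genes rose, and genes of the other routes went both ways. Over all genes tested 4.92% rose and 4.74% fell. Of 6 tested group II GH3 genes 5 rose and 0 fell (0 at an unadjusted p below 0.05, 0 by limma and 0 by DESeq2), with a median log2 fold change of 4.64 and a summed level of 3072 to 3172 CPM in IAA libraries against 166 to 227 CPM in mock libraries. Besides GH3.3, GH3.2 had 459, 490.0 and 473 CPM in IAA libraries against 8.19, 8.94 and 14.4 CPM in mock libraries (log2 fold change 5.48 ± 0.31 SE, adjusted p = 2.16e-11), and GH3.1 111, 114 and 109.8 CPM in IAA libraries against 3.47, 2.6 and 3.35 CPM in mock libraries (log2 fold change 5.14 ± 0.12 SE, adjusted p = 5.46e-18). GH3.5 and GH3.6 were 17.5-fold and 5.77-fold higher, and GH3.17 did not pass (0.35). Every called GH3 gene kept its call with each library left out. Of 11 genes of the other routes 2 rose and 2 fell. IAMT1, which methylates IAA, had 38.6, 36.3 and 36.3 CPM in IAA libraries against 10.1, 10.2 and 10.9 CPM in mock libraries (log2 fold change 1.83 ± 0.12 SE, adjusted p = 4.00e-10). UGT74E2, which glucosylates the auxin precursor indole-3-butyric acid, had 10.5, 11.1 and 10.3 CPM in IAA libraries against 1.88, 2.1 and 2.43 CPM in mock libraries, 4.97-fold higher. DAO1, the main IAA oxidase, did not pass (0.24). DAO2, its neighbour, and UGT74D1, an IAA glucosyltransferase, were 2.02-fold and 1.51-fold lower. The call of DAO2 was lost without IAA library 3 (adjusted p = 0.0286), IAA library 1, mock library 2 or mock library 3 and that of UGT74D1 with any 1 but mock library 2 left out (0.0211 without IAA library 1).

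In auxin synthesis 4 of 8 tested genes fell (50%, beside 4.74% of all genes tested). TAA1 and its relatives make the substrate from which YUC monooxygenases make IAA, and the genes that fell were all YUC genes, while 0 rose (1 at an unadjusted p below 0.05, 0 by limma and 0 by DESeq2). YUC6 had 1.14, 1.61 and 1.83 CPM in IAA libraries against 5.43, 4.16 and 5.13 CPM in mock libraries (log2 fold change -1.66 ± 0.25 SE, adjusted p = 3.84e-05). YUC2 had 1.08, 1.36 and 1.22 CPM in IAA libraries against 2.88, 2.1 and 3.07 CPM in mock libraries and YUC8 3.3, 3.1 and 3.89 CPM in IAA libraries against 7.02, 6.42 and 7.26 CPM in mock libraries. YUC5, the most read of the 4, was 1.61-fold lower. The call of YUC2 was lost without mock library 3 (adjusted p = 0.0106). TAA1 (-0.10), TAR2 (-0.31), YUC3 (0.51) and YUC9 (0.14) did not pass.

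SAUR genes split. Of 59 tested members 22 rose, 5 fell and 32 did not pass, with a median log2 fold change of 0.39 and a summed level of 678 to 684 CPM in IAA libraries against 499 to 588 CPM in mock libraries. SAUR34 had 17.3, 17 and 15.5 CPM in IAA libraries against 0.961, 1.39 and 0.837 CPM in mock libraries (log2 fold change 3.99 ± 0.20 SE, adjusted p = 2.14e-12). SAUR10 had 5.51, 5.88 and 5.81 CPM in IAA libraries against 0.877, 0.294 and 0.391 CPM in mock libraries and AT1G29490 4.49, 3.6 and 3.63 CPM in IAA libraries against 0.501, 0.672 and 0.446 CPM in mock libraries. SAUR35, SAUR9 and SAUR46 were 4.41-fold, 2.65-fold and 2.3-fold higher. SAUR20, SAUR21 and SAUR24, of a subfamily known for hypocotyl growth, were 3.06-fold, 3.03-fold and 3.06-fold higher. The genes SAUR19 to SAUR24 and those around SAUR63 to SAUR68, AT1G29490 among them, are close copies in tandem, so the split of reads between them is uncertain. SAUR5 had 0.568, 0.6 and 0.655 CPM in IAA libraries against 2.01, 2.35 and 2.29 CPM in mock libraries (log2 fold change -1.85 ± 0.30 SE, adjusted p = 9.90e-05). SAUR37 had 3.81, 2.34 and 3.28 CPM in IAA libraries against 10.5, 10.6 and 7.79 CPM in mock libraries and SAUR69 6.14, 4.04 and 6.03 CPM in IAA libraries against 17.7, 15.8 and 9.96 CPM in mock libraries. With each library left out 14 of the risen and 4 of the fallen members kept their call. The call of SAUR15 was lost without IAA library 3 (adjusted p = 0.0154), that of SAUR36 without IAA library 2 (0.0152) or mock library 1, that of SAUR19 without mock library 3 (0.0305) or mock library 2, that of SAUR28 with any 1 but mock library 1 left out (0.0409 without mock library 3) and that of SAUR29 without mock library 3 (0.0347), IAA library 1 or IAA library 3. The call of SAUR63 was lost without mock library 3 (adjusted p = 0.0313), IAA library 1, IAA library 2 or mock library 2, that of SAUR64 without mock library 3 (0.0156), that of SAUR66 without mock library 3 (0.0117) and that of SAUR14 was lost with any 1 library left out (adjusted p = 0.0396 without mock library 2).

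Of the genes of auxin transport, 5 PIN and PILS genes, 5 importer and ABCB genes and 2 AGC kinase genes rose, and 1 AGC kinase gene fell. Among all genes tested 4.92% rose and 4.74% fell. PIN proteins carry auxin out of cells at a given face, AUX1/LAX proteins carry it in, and ABCB proteins move it without strong polarity. Of 12 PIN and PILS genes 5 rose and 0 fell (1 at an unadjusted p below 0.05, 0 by limma and 0 by DESeq2). PIN3 had 202, 208 and 204 CPM in IAA libraries against 86.1, 70.3 and 93.9 CPM in mock libraries, 2.46-fold higher, and PIN7 had 82.1, 75.2 and 74.2 CPM in IAA libraries against 32.4, 34 and 37.8 CPM in mock libraries. PILS5, a carrier of the endoplasmic reticulum, and PIN4 were 1.72-fold and 1.45-fold higher. PIN2, of root gravitropism, did not pass (0.79). Of 8 importer and ABCB genes 5 rose and 0 fell (0 at an unadjusted p below 0.05, 0 by limma and 0 by DESeq2). LAX3, known for lateral root emergence, had 133, 136 and 145 CPM in IAA libraries against 53, 50.8 and 58.9 CPM in mock libraries (log2 fold change 1.35 ± 0.10 SE, adjusted p = 2.75e-09), LAX2 had 21.2, 18.3 and 18.9 CPM in IAA libraries against 10.2, 8.39 and 7.84 CPM in mock libraries, and ABCB4 41.3, 38.8 and 36.7 CPM in IAA libraries against 24.4, 17.3 and 20.4 CPM in mock libraries. ABCB19 was 1.84-fold higher. In ABCB4 and ABCB19, which kept their calls, mock library 2 was the lowest library. AUX1 was 1.39-fold higher. The call of AUX1 was lost with any 1 but mock library 1 left out (adjusted p = 0.0429 without mock library 2). Among 7 AGC kinase genes, whose products act on PIN proteins, D6PKL3 had 27.2, 25.9 and 26.7 CPM in IAA libraries against 10.1, 10.5 and 13.5 CPM in mock libraries and PID 21.1, 16.3 and 19.1 CPM in IAA libraries against 9.36, 9.61 and 9.13 CPM in mock libraries. WAG1 had 2.84, 2.65 and 2.93 CPM in IAA libraries against 5.22, 5.12 and 5.36 CPM in mock libraries. The call of WAG1 was lost with any 1 library left out (adjusted p = 0.0425 without IAA library 2).

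**Figure D3:**
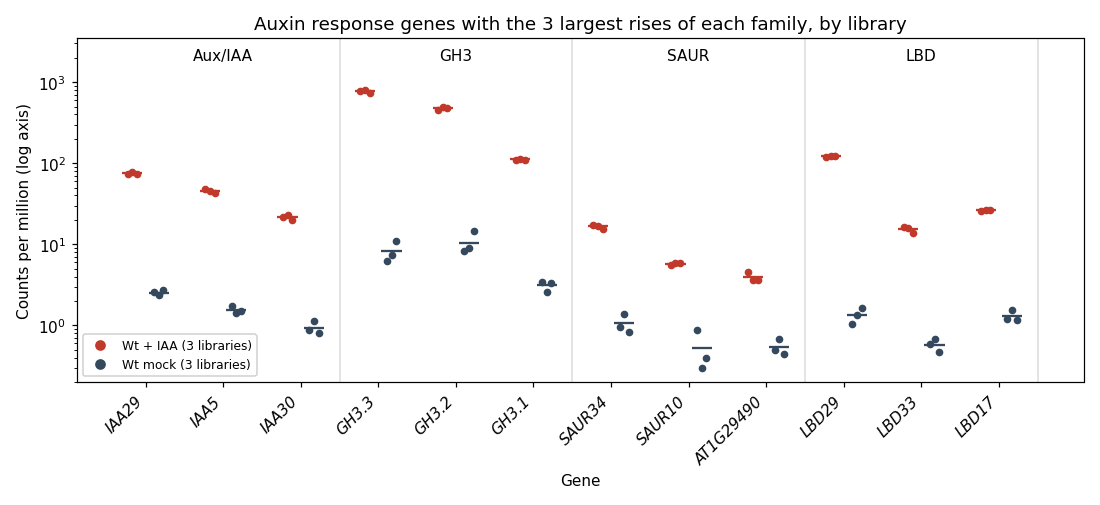
CPM (y axis, log axis) of the 3 genes with the largest rises in each of the Aux/IAA, GH3, SAUR and LBD families, in each Wt library. Points are libraries, IAA in red and mock in dark blue, and bars are group means. No gene shown overlaps between the groups, which follows largely from showing the largest rises. The gap is widest in GH3.3 (743 to 789 CPM in IAA libraries, 6.31 to 10.9 CPM in mock libraries) and LBD29.

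Most regulators of lateral root initiation rose, where 4.92% of all genes tested rose and 4.74% fell. Their list shares LBD, ARF, Aux/IAA and PLETHORA genes with the lists of those families, so it is no separate count. IAA14 and SHY2, whose gain-of-function forms block lateral roots, are among the members that rose. Lateral roots start in pericycle cells, where ARF7 and ARF19 switch on LBD genes. Of 20 tested genes 14 rose and 2 fell, with a median log2 fold change of 1.46 and a summed level of 628 to 629 CPM in IAA libraries against 225 to 231 CPM in mock libraries. All these calls held with each library left out, by limma and by DESeq2. MAKR4, a membrane-associated regulator of lateral root founder cells, had 99.8, 99.7 and 99.6 CPM in IAA libraries against 2.97, 3.02 and 3.74 CPM in mock libraries (log2 fold change 4.92 ± 0.13 SE, adjusted p = 1.16e-16). GATA23, a factor of founder cell identity, had 17.1, 16.8 and 14.9 CPM in IAA libraries against 0.501, 0.378 and 0.809 CPM in mock libraries (log2 fold change 4.77 ± 0.24 SE, adjusted p = 2.87e-12). PUCHI, an AP2 factor of the young primordium, was 8.39-fold higher, and MYB124 1.94-fold. EXPA14, an expansin, had 5.51, 4.11 and 5.11 CPM in IAA libraries against 17.9, 15.3 and 9.24 CPM in mock libraries (log2 fold change -1.53 ± 0.26 SE, adjusted p = 0.000191). ACR4 (0.23), ARF7 (0.22), PLT5 (0.24) and EXPA17 (0.65) did not pass.

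The LBD family as a whole was mixed. Of 20 tested members 7 rose and 2 fell, beside 4.92% and 4.74% of all genes tested, and the median was 0.11. LBD33 had 16.2, 15.8 and 13.8 CPM in IAA libraries against 0.585, 0.672 and 0.474 CPM in mock libraries (log2 fold change 4.74 ± 0.28 SE, adjusted p = 4.27e-11), and LBD17 26.1, 26.2 and 26.2 CPM in IAA libraries against 1.21, 1.55 and 1.17 CPM in mock libraries (log2 fold change 4.33 ± 0.16 SE, adjusted p = 1.76e-14). LBD18 and LBD16 were 15.5-fold and 4.24-fold higher. LBD19, at a low level, had a log2 fold change of 4.18 and of 4.87 without mock library 3. LBD41, also known from low oxygen, was 1.87-fold higher. LBD25 had 1.25, 1.77 and 1.44 CPM in IAA libraries against 11.5, 13.9 and 12.1 CPM in mock libraries (log2 fold change -3.04 ± 0.18 SE, adjusted p = 4.40e-11). LBD38, of a group tied to nitrate, was 1.35-fold lower. The call of LBD38 was lost without IAA library 1 (adjusted p = 0.0112).

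In other families of developmental regulators some members rose, where 4.92% of all genes tested did. Of 9 WOX genes 4 rose and 0 fell (2 at an unadjusted p below 0.05, 0 by limma and 0 by DESeq2). WOX11, which acts in new root founder cells, had 19.9, 19.8 and 17.7 CPM in IAA libraries against 2.97, 4.78 and 4.94 CPM in mock libraries (log2 fold change 2.16 ± 0.16 SE, adjusted p = 1.35e-09). WOX14, of vascular tissue, had 4.32, 4.36 and 4.76 CPM in IAA libraries against 0.543, 0.797 and 0.586 CPM in mock libraries, and WOX7 1.19, 1.58 and 0.917 CPM in IAA libraries against 0.0836, 0.042 and 0.112 CPM in mock libraries. WOX5, of the root quiescent centre, was 2.02-fold higher. Of 6 PLETHORA genes, which pattern root meristems, 2 rose and 0 fell (0 at an unadjusted p below 0.05, 0 by limma and 0 by DESeq2). PLT7 had 2.56, 3.13 and 2.71 CPM in IAA libraries against 0.585, 1.26 and 1.06 CPM in mock libraries and PLT3 14.4, 11 and 12.4 CPM in IAA libraries against 8.44, 6 and 4.88 CPM in mock libraries, while PLT1 (0.53) and PLT2 (-0.09) did not pass. Of 9 HD-Zip class II genes, known from shade and auxin responses, 4 rose and 0 fell (0 at an unadjusted p below 0.05, 0 by limma and 0 by DESeq2). HAT2 had 245, 243 and 248 CPM in IAA libraries against 29.7, 30 and 27.5 CPM in mock libraries (log2 fold change 3.08 ± 0.09 SE, adjusted p = 5.84e-16). ATHB17 had 6.71, 6.64 and 6.6 CPM in IAA libraries against 0.669, 0.546 and 0.642 CPM in mock libraries and ATHB18 3.47, 3.07 and 3.06 CPM in IAA libraries against 0.376, 0.797 and 0.419 CPM in mock libraries, and HAT1 was 2.12-fold higher. The shade marker ATHB2 did not pass (0.58). Of 13 OVATE family genes OFP4 and OFP1 rose, the second 2.89-fold, and 0 fell (2 at an unadjusted p below 0.05, 1 by limma and 0 by DESeq2). OFP4 was 6.99 on the log2 scale without mock library 3, as above.

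MONOPTEROS (ARF5) patterns vascular tissue through genes such as TMO5, and of 13 genes of this list 8 rose and 0 fell (0 at an unadjusted p below 0.05, 0 by limma and 0 by DESeq2). Over all genes tested 4.92% rose and 4.74% fell. LOG3, which activates cytokinins, had 4.6, 4.23 and 4.32 CPM in IAA libraries against 1.3, 1.43 and 1.03 CPM in mock libraries (log2 fold change 1.82 ± 0.22 SE, adjusted p = 2.99e-06), and LOG4 2.22, 1.14 and 2.05 CPM in IAA libraries against 0.585, 0.588 and 0.753 CPM in mock libraries. TMO5 and TMO3 were 2.05-fold and 1.92-fold higher. ATHB8 (0.51), WOX4 (-0.37) and VND7 (-0.43) did not pass. The call of LOG4 was lost with any 1 but IAA library 2 left out (adjusted p = 0.0427 without IAA library 1) and that of ARF5 with any 1 but mock library 1 left out (0.0549 without mock library 3). The call of TMO6 was lost with any 1 library left out (adjusted p = 0.0337 without IAA library 2) and that of T5L1 with any 1 library left out (0.0232 without IAA library 2).

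In ethylene synthesis ACC synthase (ACS) genes rose and an ACC oxidase (ACO) gene fell. Among all genes tested 4.92% rose and 4.74% fell. ACS enzymes make the precursor that ACO enzymes turn into ethylene. Of 11 tested genes 5 rose, all ACS, and 1 fell. ACS4 had 15.7, 15.7 and 16.3 CPM in IAA libraries against 0.877, 0.588 and 0.977 CPM in mock libraries (log2 fold change 4.25 ± 0.19 SE, adjusted p = 2.58e-13). ACS8 had 11.9, 7.55 and 6.99 CPM in IAA libraries against 1.84, 1.72 and 1.62 CPM in mock libraries and ACS11 31.7, 37.9 and 31.3 CPM in IAA libraries against 8.11, 8.06 and 8.12 CPM in mock libraries. ACS2 and ACS6 were 1.9-fold and 1.61-fold higher, and ACS7 did not pass (0.04). The call of ACS6 was lost with any 1 library left out (adjusted p = 0.0446 without IAA library 1). ACO5 had 256, 274 and 273 CPM in IAA libraries against 376, 417 and 416 CPM in mock libraries (log2 fold change -0.59 ± 0.09 SE, adjusted p = 3.53e-05). Of 17 signalling genes 3 rose (12 at an unadjusted p below 0.05, 6 by limma and 4 by DESeq2). A fall was called in 0 (0 at an unadjusted p below 0.05, 0 by limma and 0 by DESeq2). ERF1, a target of EIN3, had 13.7, 14.9 and 13.5 CPM in IAA libraries against 1.88, 3.99 and 3.24 CPM in mock libraries, 4.61-fold higher, the receptor gene ERS2 had 23.5, 22.2 and 20.4 CPM in IAA libraries against 10.8, 10.2 and 11.1 CPM in mock libraries, and EDF3 41.9, 45.6 and 45.2 CPM in IAA libraries against 26.6, 28.4 and 29.4 CPM in mock libraries. EBF1 (0.29), EBF2 (0.25), CTR1 (0.39) and EIN2 (0.53) did not pass.

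Cytokinin response genes fell, where 4.74% of all genes tested fell and 4.92% rose. Type-A ARR genes are induced by cytokinin and damp its signalling. Of 8 tested members 8 fell and 0 rose (0 at an unadjusted p below 0.05, 0 by limma and 0 by DESeq2), with a median log2 fold change of -1.22 and a summed level of 118 to 124 CPM in IAA libraries against 227 to 256 CPM in mock libraries. All 8 calls held with each library left out. ARR6 had 4.49, 3.51 and 4.06 CPM in IAA libraries against 20.4, 20.9 and 19.4 CPM in mock libraries (log2 fold change -2.34 ± 0.14 SE, adjusted p = 9.81e-11). ARR3 had 4.21, 2.97 and 4.06 CPM in IAA libraries against 14.3, 14.5 and 7.7 CPM in mock libraries and ARR7 4.26, 4.36 and 4.98 CPM in IAA libraries against 13, 13.8 and 10.3 CPM in mock libraries. The smallest change was that of ARR9, 1.47-fold lower. In cytokinin metabolism 7 of 20 tested genes rose and 3 fell. The oxidase genes CKX1, CKX6 and CKX3, whose enzymes break cytokinins down, had 9.09, 7.2 and 9.61 CPM in IAA libraries against 1.8, 2.69 and 1.79 CPM in mock libraries, 14.4, 12.9 and 14.7 CPM in IAA libraries against 4.18, 3.4 and 3.1 CPM in mock libraries and 4.38, 4.77 and 6.03 CPM in IAA libraries against 1.84, 1.18 and 1.2 CPM in mock libraries. CKX5 was 1.8-fold and the activating enzyme gene LOG5 1.99-fold higher. CKX4 had 0.114, 0.126 and 0.0874 CPM in IAA libraries against 0.961, 0.965 and 1.28 CPM in mock libraries. CYP735A2, given above, and IPT3, which makes cytokinin precursors in phloem, fell, IPT3 with 9.72, 7.46 and 9.13 CPM in IAA libraries against 14.9, 15.9 and 13.3 CPM in mock libraries. CYP735A1 did not pass (-2.14). LOG4 also rose, with the limit given above (adjusted p = 0.0427 without IAA library 1).

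In other growth hormone pathways genes of synthesis and of inactivation changed, 42.9% of brassinosteroid and 41.7% of gibberellin metabolism genes, beside 9.66% of all genes tested. Of 14 brassinosteroid genes 5 rose and 1 fell, all kept with each library left out. DWF4, a rate-limiting synthesis enzyme, had 37.4, 36.1 and 38.3 CPM in IAA libraries against 13.8, 14.1 and 16.9 CPM in mock libraries (log2 fold change 1.31 ± 0.11 SE, adjusted p = 6.93e-09), and BR6OX2, of the last step, was 1.75-fold higher. The inactivating genes BAS1 and BEN1 had 37.7, 41.1 and 39.9 CPM in IAA libraries against 10.4, 9.7 and 11.9 CPM in mock libraries and 163, 162 and 167 CPM in IAA libraries against 73.1, 70.6 and 76.9 CPM in mock libraries, and SOB7, another, was 2.17-fold higher. ROT3, a cytochrome P450 of the pathway, had 11.1, 11.9 and 10.5 CPM in IAA libraries against 31.1, 27.7 and 36.1 CPM in mock libraries (log2 fold change -1.50 ± 0.12 SE, adjusted p = 3.92e-09). Of 12 gibberellin metabolism genes 2 rose, both for inactivation, and 3 fell, all for synthesis. GA2OX8 had 9.61, 9.83 and 12.3 CPM in IAA libraries against 2.3, 3.48 and 2.9 CPM in mock libraries and GA2OX6 42, 41.5 and 39.1 CPM in IAA libraries against 13.6, 19.9 and 16.4 CPM in mock libraries. GA3OX1, of the activating step, had 9.78, 9.67 and 8.61 CPM in IAA libraries against 25.4, 24.4 and 25.5 CPM in mock libraries (log2 fold change -1.42 ± 0.13 SE, adjusted p = 4.03e-08). GA3 and KAO2 were 1.38-fold and 1.45-fold lower. The call of KAO2 was lost without IAA library 3 (adjusted p = 0.0348), IAA library 1, mock library 1 or mock library 3. Of 9 receptor and DELLA genes 1 fell, the receptor gene GID1A (1.43-fold), and 0 rose (1 at an unadjusted p below 0.05, 0 by limma and 0 by DESeq2).

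Among stress hormone genes the share called was 8.7% for abscisic acid, 21.7% for jasmonate, 10% for salicylic acid and 22.2% for strigolactone, beside 9.66% of all genes tested. Of 23 abscisic acid genes 2 rose (8 at an unadjusted p below 0.05, 4 by limma and 4 by DESeq2). A fall was called in 0 (2 at an unadjusted p below 0.05, 1 by limma and 1 by DESeq2). NCED5, of synthesis, had 2.9, 2.37 and 1.97 CPM in IAA libraries against 0.501, 0.21 and 0.14 CPM in mock libraries, with a log2 fold change of 3.13 and of 3.79 without mock library 1. ABI2, a phosphatase that damps the response, was 1.71-fold higher, and the response markers RD29A (-0.09), RD29B (-0.00) and RAB18 (0.11) did not pass. Of 23 jasmonate genes 1 rose and 4 fell. AOC4, of synthesis, was 1.39-fold higher. The repressor gene JAZ4 had 4.21, 5.47 and 4.06 CPM in IAA libraries against 9.94, 9.15 and 10.8 CPM in mock libraries (log2 fold change -1.11 ± 0.16 SE, adjusted p = 2.89e-05), and JAZ6, JAZ2 and JAZ9 were 1.45-fold, 1.43-fold and 1.4-fold lower. The call of JAZ9 was lost without IAA library 3 (adjusted p = 0.0111) and that of JAZ6 without IAA library 3 (0.0294), IAA library 1, mock library 2 or mock library 3. Of 10 salicylic acid genes 0 rose (3 at an unadjusted p below 0.05, 1 by limma and 0 by DESeq2) and 1 fell, EDS5, a transporter of its synthesis, with 8.87, 7.93 and 7.99 CPM in IAA libraries against 19.8, 19.3 and 21.1 CPM in mock libraries (log2 fold change -1.29 ± 0.14 SE, adjusted p = 4.99e-07). Of 9 strigolactone genes CCD8, of synthesis, had 3.75, 3.92 and 3.71 CPM in IAA libraries against 0.919, 1.55 and 1.03 CPM in mock libraries (log2 fold change 1.71 ± 0.22 SE, adjusted p = 4.91e-06), and MAX1, also of synthesis, was 1.38-fold lower. The call of MAX1 was lost without IAA library 3 (adjusted p = 0.0102).

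Cell wall genes moved in both directions, where 4.92% of all genes tested rose and 4.74% fell. Expansins loosen walls, and 5 of 18 alpha-expansin genes rose and 3 fell. EXPA4 had 214, 199 and 193 CPM in IAA libraries against 59.7, 76.6 and 76.7 CPM in mock libraries (log2 fold change 1.51 ± 0.12 SE, adjusted p = 2.76e-09), and EXPA20 and EXPA11 had 8.24, 7.39 and 7.65 CPM in IAA libraries against 3.68, 3.57 and 3.77 CPM in mock libraries and 64.2, 60.7 and 55.6 CPM in IAA libraries against 34.3, 39.2 and 36.2 CPM in mock libraries. EXPA1 was 1.33-fold higher and EXPA5 1.92-fold lower. The call of EXPA7 was lost without IAA library 2 (adjusted p = 0.0242), IAA library 3, mock library 1 or mock library 3 and that of EXPA9 with any 1 but mock library 3 left out (0.0244 without mock library 2). XTH enzymes cut and rejoin xyloglucan, and 3 of 28 genes rose and 8 fell. XTH19 had 171, 179 and 161 CPM in IAA libraries against 40, 50.1 and 47 CPM in mock libraries (log2 fold change 1.90 ± 0.11 SE, adjusted p = 5.39e-11). XTH18 and XTH8 were 1.71-fold and 1.43-fold higher. XTH31, the most read of those that fell, had 467, 512 and 505 CPM in IAA libraries against 1022, 1244 and 1357 CPM in mock libraries (log2 fold change -1.29 ± 0.11 SE, adjusted p = 1.08e-08). XTH15 had 34.4, 35.9 and 34 CPM in IAA libraries against 79, 90 and 81.3 CPM in mock libraries and XTH21 0.0568, 0.379 and 0.481 CPM in IAA libraries against 2.55, 1.93 and 1.2 CPM in mock libraries. The call of XTH12 was lost with any 1 but mock library 1 left out (adjusted p = 0.0233 without mock library 2). Of 11 genes of pectin breakdown and abscission 3 rose and 1 fell. The polygalacturonase genes QRT2 and ADPG2 had 3.41, 2.97 and 2.36 CPM in IAA libraries against 0.543, 0.42 and 0.53 CPM in mock libraries and 4.49, 2.12 and 3.32 CPM in IAA libraries against 0.543, 0.672 and 1 CPM in mock libraries, the receptor kinase gene HAE was 2.96-fold higher, and PGX1 was 3.18-fold lower. Of 11 cellulose synthesis genes 0 rose (0 at an unadjusted p below 0.05, 0 by limma and 0 by DESeq2) and 0 fell (0 at an unadjusted p below 0.05, 0 by limma and 0 by DESeq2). In each of the 11 mock library 2 was the lowest library. With each library left out, mock library 2 among them, 0 of the 11 rose and 0 fell. Their log2 fold changes without it are not given here.

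Of root hair genes 19% and of Casparian strip and suberin genes 27.8% were called, beside 9.66% of all genes tested. Of 21 root hair genes 3 rose and 1 fell. LRX2, a wall protein of root hair growth, had 30.6, 33.1 and 27.4 CPM in IAA libraries against 16.5, 11.8 and 14.8 CPM in mock libraries (log2 fold change 1.08 ± 0.14 SE, adjusted p = 8.67e-06), and PRP1, a proline-rich wall protein, 63.9, 79.9 and 76.9 CPM in IAA libraries against 137, 135 and 115 CPM in mock libraries (log2 fold change -0.80 ± 0.14 SE, adjusted p = 0.00029). RSL4, the main regulator of hair growth, did not pass (-0.61). The call of RSL2 was lost with any 1 library left out (adjusted p = 0.0468 without mock library 2). Of 18 Casparian strip and suberin genes 3 rose and 2 fell. FAR4, FAR1 and KCS2, of suberin chain synthesis, had 10.4, 11.6 and 12.6 CPM in IAA libraries against 3.51, 3.44 and 6.33 CPM in mock libraries, 101, 112 and 98 CPM in IAA libraries against 39.2, 50.4 and 65.9 CPM in mock libraries and 19.4, 18.2 and 17.3 CPM in IAA libraries against 9.44, 10.2 and 8.51 CPM in mock libraries. The call of CASP4 was lost without mock library 2 (adjusted p = 0.0462), IAA library 1 or IAA library 3 and that of KCS20 with any 1 but mock library 2 left out (0.0712 without mock library 3).

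Of D-type cyclin and KRP genes 12.5% were called, beside 9.66% of all genes tested, and no S-phase or mitotic gene was. Of 16 D-type cyclin and KRP genes 2 fell and 0 rose (2 at an unadjusted p below 0.05, 0 by limma and 0 by DESeq2). KRP7 and KRP2, inhibitors of cyclin-dependent kinases, had 1.14, 1.55 and 1.57 CPM in IAA libraries against 4.05, 3.9 and 3.1 CPM in mock libraries and 11.7, 12.2 and 11.7 CPM in IAA libraries against 17.1, 21.7 and 18.4 CPM in mock libraries. Of 18 S-phase genes 0 rose by edgeR (6 at an unadjusted p below 0.05, 0 by limma and 0 by DESeq2) and 0 fell (0 at an unadjusted p below 0.05, 0 by limma and 0 by DESeq2), with a median of 0.22. Of 18 mitotic genes 0 rose (0 at an unadjusted p below 0.05, 0 by limma and 0 by DESeq2) and 0 fell (0 at an unadjusted p below 0.05, 0 by limma and 0 by DESeq2), with a median of -0.03.

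Most tested aquaporin genes fell, beside 4.74% of all genes tested. PIP proteins carry water across the plasma membrane and TIP proteins across the vacuole membrane. Of 13 PIP genes 7 fell and 0 rose (0 at an unadjusted p below 0.05, 0 by limma and 0 by DESeq2), with a median log2 fold change of -0.45 and a summed level of 4299.5 to 4779 CPM in IAA libraries against 6128 to 7122 CPM in mock libraries. PIP2;4 had 15.7, 19 and 18.7 CPM in IAA libraries against 57.9, 65.6 and 45.8 CPM in mock libraries (log2 fold change -1.66 ± 0.17 SE, adjusted p = 1.56e-07). PIP1;1 had 712, 710.1 and 618 CPM in IAA libraries against 1269, 1489 and 1598 CPM in mock libraries (log2 fold change -1.09 ± 0.10 SE, adjusted p = 4.47e-08), and PIP2;2 217, 222 and 216 CPM in IAA libraries against 355, 418 and 415 CPM in mock libraries. PIP2;1, the other highly read member, was 1.77-fold lower. The call of PIP1;3 was lost without IAA library 3 (adjusted p = 0.0175). Of 7 TIP genes 4 fell and 0 rose (0 at an unadjusted p below 0.05, 0 by limma and 0 by DESeq2). TIP2;3 had 6.14, 6.38 and 5.11 CPM in IAA libraries against 17.9, 17.5 and 16.5 CPM in mock libraries (log2 fold change -1.55 ± 0.20 SE, adjusted p = 6.81e-06), and TIP2;2 and TIP1;2 were 1.58-fold and 1.4-fold lower. The call of TIP4;1 was lost without IAA library 2 (adjusted p = 0.0205), mock library 1 or mock library 2.

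Of nitrate genes 25% and of iron genes 26.3% were called, beside 9.66% of all genes tested. Of 12 nitrate genes 3 fell and 0 rose (2 at an unadjusted p below 0.05, 1 by limma and 0 by DESeq2). NRT1.5, which loads nitrate into the xylem, had 24.8, 26.9 and 29.6 CPM in IAA libraries against 69.4, 65 and 81.3 CPM in mock libraries (log2 fold change -1.41 ± 0.13 SE, adjusted p = 3.75e-08). NRT2.1, a high-affinity importer, had 83.2, 87.5 and 86.3 CPM in IAA libraries against 111, 109 and 148 CPM in mock libraries, and NRT1.1, a sensor and importer that also carries auxin, 182, 183 and 191 CPM in IAA libraries against 241, 225 and 294 CPM in mock libraries. The call of NRT1.1 was lost without mock library 3 (adjusted p = 0.0575), IAA library 1, IAA library 2 or IAA library 3. Of 19 iron genes 2 rose and 3 fell. Of these calls 4 encode nicotianamine synthases, whose product binds iron, and of these NAS2 rose and NAS1, NAS3 and NAS4 fell. NAS2 had 9.78, 11.1 and 12 CPM in IAA libraries against 3.13, 4.2 and 5.89 CPM in mock libraries, and NAS4 and NAS3 had 11.5, 12.7 and 12.6 CPM in IAA libraries against 19.4, 23.8 and 24 CPM in mock libraries and 13.3, 12.8 and 15.2 CPM in IAA libraries against 20.1, 20.1 and 18.7 CPM in mock libraries. The importer gene IRT1 and its regulator gene FIT did not pass (-0.46 and -0.34). The call of NAS1 was lost with any 1 library left out (adjusted p = 0.0466 without IAA library 1) and that of F6H1 without mock library 1 (0.0131) or IAA library 3.

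Most genes of indole glucosinolate synthesis fell, beside 4.74% of all genes tested. Indole glucosinolates are defence compounds made from tryptophan, which is also the source of IAA. Of 16 tested genes 11 fell and 0 rose (0 at an unadjusted p below 0.05, 0 by limma and 0 by DESeq2), with a median log2 fold change of -0.64 and a summed level of 1819 to 1933 CPM in IAA libraries against 2573 to 3138 CPM in mock libraries. MYB34, a regulator of the pathway, had 6.48, 4.68 and 5.37 CPM in IAA libraries against 25.5, 24.3 and 23.4 CPM in mock libraries (log2 fold change -2.16 ± 0.14 SE, adjusted p = 1.99e-10), and MYB122, another, 1.36, 1.67 and 2.01 CPM in IAA libraries against 4.85, 5.83 and 5.69 CPM in mock libraries. CYP79B2, which makes the first intermediate from tryptophan, had 56.3, 60.2 and 51.9 CPM in IAA libraries against 163, 161 and 163 CPM in mock libraries (log2 fold change -1.53 ± 0.12 SE, adjusted p = 4.18e-09), and its relative CYP79B3 was 2.49-fold lower. CYP83B1, of the next step, SUR1 and UGT74B1 were 1.76-fold, 1.5-fold and 1.7-fold lower. MYB51 (-0.20) and CYP81F2 (-0.12) did not pass. The call of SOT16 was lost with any 1 but mock library 1 left out (adjusted p = 0.0521 without mock library 2) and that of GSTF10 without mock library 2 (0.0238), IAA library 3 or mock library 3.

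Of 14 flavonoid genes 4 fell (10 at an unadjusted p below 0.05, 8 by limma and 6 by DESeq2), with a list median of -0.44. By edgeR 4.74% of all genes tested fell. In this list 0 rose (0 at an unadjusted p below 0.05, 0 by limma and 0 by DESeq2). PAP2, a MYB regulator of anthocyanin synthesis, had 1.02, 0.822 and 1 CPM in IAA libraries against 2.55, 3.32 and 3.04 CPM in mock libraries (log2 fold change -1.66 ± 0.28 SE, adjusted p = 0.000164). DFR and LDOX, of the anthocyanin branch, had 5.91, 7.39 and 6.38 CPM in IAA libraries against 18.9, 15.2 and 20.5 CPM in mock libraries and 4.32, 6.7 and 5.15 CPM in IAA libraries against 13.5, 10.8 and 14.9 CPM in mock libraries. The first enzyme gene, CHS, did not pass (-0.37). Glutathione S-transferase genes split, with 9 of 38 higher and 7 lower, beside 4.92% and 4.74% of all genes tested. The risen genes were tau members but for GSTF8, with GSTU10, GSTU22 and GSTU25 at 1.25, 2.12 and 2.62 CPM in IAA libraries against 0.669, 0.672 and 0.726 CPM in mock libraries, 7.45, 10.3 and 10.9 CPM in IAA libraries against 3.22, 2.81 and 3.91 CPM in mock libraries and 13.9, 13.8 and 14.3 CPM in IAA libraries against 5.68, 4.87 and 4.41 CPM in mock libraries. GSTU8, the most read risen tau member, was 2.14-fold higher. GSTF11, which acts in glucosinolate synthesis, had 1.76, 2.24 and 1.75 CPM in IAA libraries against 6.89, 8.94 and 7.95 CPM in mock libraries (log2 fold change -2.03 ± 0.20 SE, adjusted p = 1.43e-07). GSTF12, which carries anthocyanins, had 4.55, 3.89 and 3.49 CPM in IAA libraries against 8.48, 8.69 and 10.6 CPM in mock libraries, and GSTU27 35.6, 37.2 and 41 CPM in IAA libraries against 75, 86.9 and 79.3 CPM in mock libraries. The call of GSTU1 was lost with any 1 library left out (adjusted p = 0.022 without IAA library 2), that of GSTU7 with any 1 but mock library 2 left out (0.0303 without mock library 3) and that of GSTU18 without IAA library 3 (0.0139).

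**Figure D4:**
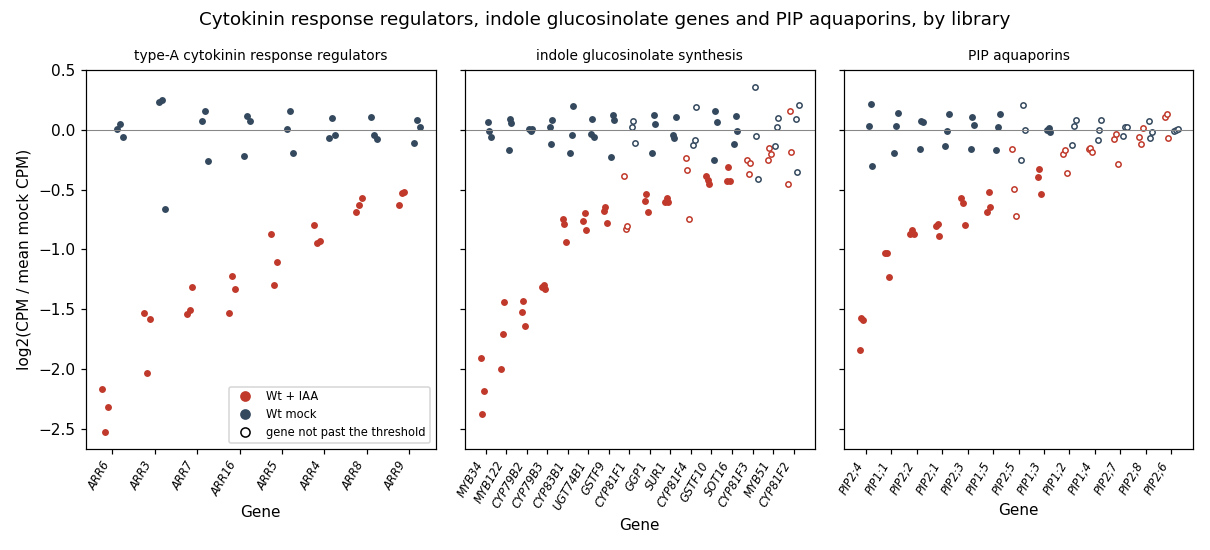
Log2 of CPM over the mean mock CPM of the gene (y axis) for every tested type-A ARR, indole glucosinolate and PIP gene, with IAA libraries in red, mock libraries in dark blue and open points for genes not past the threshold. All 8 ARR genes lie lower in IAA than in mock libraries, as do 11 of 16 glucosinolate and 7 of 13 PIP genes that passed.

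For stress, light and the clock, the share called was 30.8% of low-oxygen, 22.2% of heat shock, 20% of touch and wound, 20% of shade and light, 5.56% of light-harvesting and Rubisco and 0% of clock genes, beside 9.66% of all genes tested. Of 13 low-oxygen genes 3 rose and 1 fell, and ADH1, a marker of the response, did not pass (0.18). The call of SUS4 was lost with any 1 but IAA library 2 left out (adjusted p = 0.0355 without IAA library 1), that of SUS1 without mock library 2 (0.034), IAA library 1, IAA library 3 or mock library 3 and that of HRE1 without IAA library 3 (0.0188), IAA library 1, mock library 1 or mock library 2. Of 9 heat shock genes HSFA7A had 9.15, 9.58 and 9.87 CPM in IAA libraries against 17.3, 17.8 and 18.4 CPM in mock libraries and HSP70 63.6, 66.2 and 57.2 CPM in IAA libraries against 33.5, 40.6 and 47.1 CPM in mock libraries. The call of HSP70 was lost without mock library 1 (adjusted p = 0.0258), IAA library 1, IAA library 2 or mock library 2. Of 15 early touch and wound genes 3 rose and 0 fell (0 at an unadjusted p below 0.05, 0 by limma and 0 by DESeq2). ERF11 had 121, 99.3 and 94.9 CPM in IAA libraries against 39, 63.8 and 59.5 CPM in mock libraries, TCH3 224, 225 and 205 CPM in IAA libraries against 125, 165 and 143 CPM in mock libraries and WRKY53 31.4, 33.7 and 28 CPM in IAA libraries against 14, 18.8 and 15.5 CPM in mock libraries. The call of WRKY53 was lost without IAA library 2 (adjusted p = 0.0121), mock library 1 or mock library 3. Of 18 light-harvesting and Rubisco genes RBCS1B alone fell by edgeR (10 at an unadjusted p below 0.05, 2 by limma and 2 by DESeq2). In this list 0 rose (0 at an unadjusted p below 0.05, 0 by limma and 0 by DESeq2). All log2 fold changes of the list lay between -0.43 and -0.14. Of 15 shade and light regulators 3 fell and 0 rose (2 at an unadjusted p below 0.05, 1 by limma and 1 by DESeq2), with PIF1 at 9.43, 8.97 and 9.7 CPM in IAA libraries against 13.7, 13.8 and 14.3 CPM in mock libraries. The call of HFR1 was lost with any 1 library left out (adjusted p = 0.0473 without mock library 3) and that of PIF7 without IAA library 3 (0.0287), IAA library 2, mock library 1 or mock library 3. Of 12 clock genes 0 rose (0 at an unadjusted p below 0.05, 0 by limma and 0 by DESeq2) and 0 fell (1 at an unadjusted p below 0.05, 1 by limma and 0 by DESeq2).

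Among the markers of a whole seedling, WOX5 and EXPA7 rose and COBL9, of root hairs, was 1.92-fold lower, while KNAT1, of the shoot meristem, was 1.38-fold lower. The call of COBL9 was lost without mock library 1 (adjusted p = 0.0189), IAA library 1 or IAA library 3 and that of KNAT1 with any 1 but mock library 1 left out (0.0582 without mock library 3). That of EXPA7 is given above. Of 9 reference genes 0 rose (1 at an unadjusted p below 0.05, 0 by limma and 0 by DESeq2) and 0 fell (0 at an unadjusted p below 0.05, 0 by limma and 0 by DESeq2), and their summed level was 4109 to 4246 CPM in IAA libraries against 4088 to 4109.6 CPM in mock libraries.

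**Figure D5:**
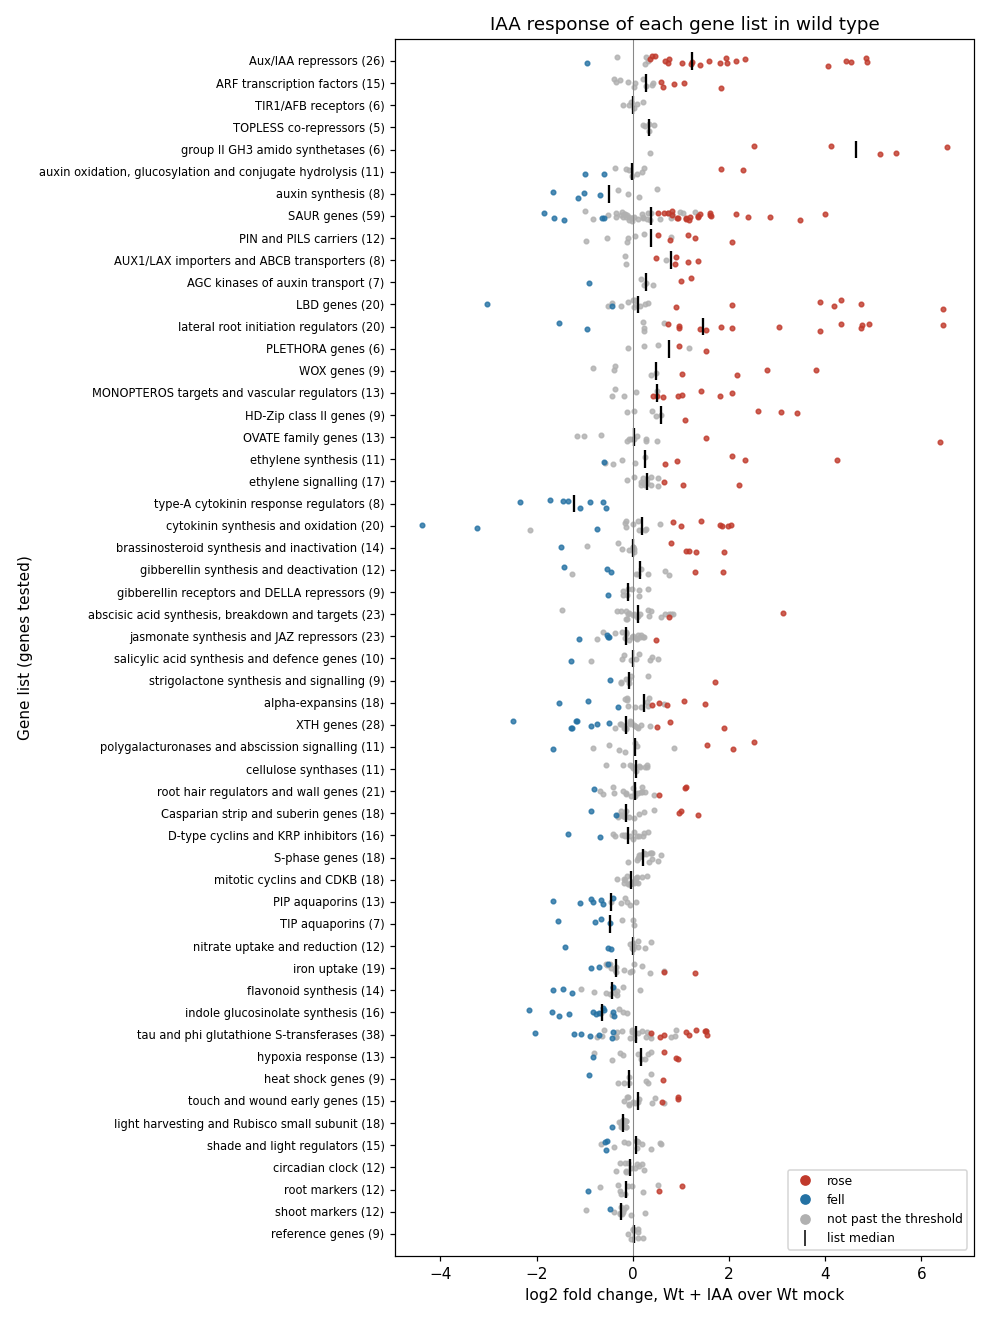
Log2 fold change of IAA over mock in Wt (x axis) for each tested gene of the 54 lists (y axis, with the number tested), coloured by whether it rose, fell or did not pass, with a bar at the list median. Medians lie highest for GH3 (4.64), lateral root (1.46) and Aux/IAA genes (1.23) and lowest for type-A ARR genes (-1.22).

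The IAA response differed from that in Wt in 14 genes in aff1-1 (0.0722% of genes tested) and 17 in aff1-3 (0.0877%), by edgeR's test of the interaction. The Wt libraries enter both comparisons. Among list members, GH3.1 had a log2 fold change of 3.98 in aff1-1 and 3.77 in aff1-3 against 5.14 in Wt, with differences of -1.17 ± 0.16 SE (adjusted p = 0.00263) in aff1-1 and -1.38 ± 0.16 SE (adjusted p = 0.000235) in aff1-3. MAKR4, at 4.92 in Wt, differed by -1.14 ± 0.18 SE (adjusted p = 0.00592) in aff1-1 and -1.32 ± 0.18 SE (adjusted p = 0.00108) in aff1-3. LBD25 had -1.29 in aff1-1 and -1.06 in aff1-3 against -3.04 in Wt, past the threshold in both alleles. GH3.3 had 5.05 in aff1-1 and 5.23 in aff1-3 against 6.54 in Wt, and passed in aff1-1 while aff1-3 was at adjusted p = 0.0148. PUCHI had 1.76 in aff1-1 and 2.07 in aff1-3 against 3.05 in Wt and UGT74E2 0.52 in aff1-1, both past the threshold in aff1-1. These genes moved less in aff1-1 than in Wt, in either direction. SAUR genes of tandem groups moved further in aff1-3, with SAUR27 at 1.94 in aff1-1 and 2.80 in aff1-3 against 1.17 in Wt, SAUR66 at 1.61 in aff1-1 and 2.75 in aff1-3 against 0.92 in Wt and AT1G29510, which did not pass in Wt, at 0.83 in aff1-1 and 2.00 in aff1-3 against 0.32 in Wt. These counts of 14 and 17 shrank to 2 in aff1-1 without IAA library 1 and to 8 in aff1-3 without IAA library 1, IAA library 3 or mock library 2. They were 5, 4 and 3 in aff1-1 without IAA library 2, IAA library 3 and mock library 2, and 10 and 30 in aff1-3 without IAA library 2 and mock library 3. By limma they were 48 and 11, and by DESeq2 94 and 117.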

How the data were processed

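RNA was isolated from whole seedlings, and the labels name the SMARTer kit for cDNA while the study's methods name Ribo-Zero. The deposited raw counts per gene came from featureCounts, after STAR alignment to TAIR10 by the authors. Strand use in counting is not given in the sources used here, so overlapping genes cannot be told apart. Of 28278 gene rows 27999 (99%) matched RefSeq's TAIR10.1, the source of names and promoters. Testing covered 19383 genes, each above 1 CPM in 2 or more samples of some group, leaving out 4 nuclear rRNA genes, and used edgeR 4.0.16 (R 4.3.3; TMM, quasi-likelihood test, 18 samples, 6 group means, Benjamini-Hochberg). CPM use TMM-scaled library sizes. On simulated data with 200 of 19383 genes changed, the Wt comparison found 86% of 2-fold and 100% of 4-fold changes, with 5 false calls. The changed genes were drawn only from those with higher counts, so these shares do not extend to genes of low count. The simulated counts held no shift with transcript length like that of mock library 2, so the false calls do not cover it. Alternatives were limma 3.58.1, DESeq2 1.42.0, other scalings, filters, thresholds and left-out libraries. Named genes were the 10 largest rises and falls with no overlap and a mean of at least 10 counts, the 3 most-read genes in each direction, list members (values per library for up to 3 rises and 3 falls a list) and those with an interaction. The members and the 54 lists were chosen with earlier results of these data known. Counting intervals are exact at 95% and cover counting error only. 1 list member's own values are not reported here.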

Additional observations from a re-analysis of the deposited data

Results flagged for a closer look

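By edgeR's test of the difference itself, the IAA response differed from that in Wt in 14 genes in aff1-1 and 17 in aff1-3. Those named in the report are given here as the mutant response minus the Wt response, on the log2 scale. In aff1-1 the differences were -1.17 for GH3.1 (adjusted p = 0.00263), -1.49 for GH3.3 (0.00763), -1.14 for MAKR4 (0.00592), -1.29 for PUCHI (0.0052) and -1.78 for UGT74E2 (0.0052), all of which rose in Wt, and 1.75 for LBD25 (0.00197), which fell in Wt. In aff1-3 they were -1.38 for GH3.1 (adjusted p = 0.000235), -1.32 for MAKR4 (0.00108) and 1.97 for LBD25 (0.000248). Also in aff1-3 they were 1.82 for SAUR66 (adjusted p = 0.00561) and 1.63 for SAUR27 (0.00908), which rose in Wt, and 1.68 for AT1G29510 (0.00908), a neighbour of SAUR66 that did not pass in Wt. AT1G05660, annotated as a pectin lyase-like protein, had a log2 fold change of 0.42 in aff1-3 (adjusted p = 0.752) against -4.46 in Wt, a difference of 4.88 (adjusted p = 0.00861), with 9 counts over the IAA libraries and 221 over the mock libraries of Wt. The same Wt libraries enter both comparisons.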

How the results depend on the processing

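The total of 1873 genes was 1705 to 2641 by limma (2641, of which 1864 shared), DESeq2 (2369, 1871 shared), Wt samples alone (2227, 1807 shared), other scalings (1878 and 1916), no filter (1928), over 5 CPM (1705) and without organelle genes (1904), with 47.8 to 51.8% of calls higher in IAA (50.9% as reported). With each library left out it was 1399 to 1722, of which 1377 to 1562 were shared. At adjusted p below 0.05 it was 3072 (1510 higher, 1562 lower), and with a limit of 1.5 on the size of the log2 fold change it was 399 (251 higher, 148 lower). In aff1-1 the 14 genes became 94 by DESeq2, 48 by limma, 37 with no filter, 67 at 0.05 and 4 with the fold limit, and 2 to 16 with a library left out. In aff1-3 the 17 became 117, 11, 43, 98 and 10, and 8 to 30. The cause was not tested. Among named genes, a change of direction was counted only where the gene was called as reported or in the alternative. By that count only AT2G41450 changed direction. Its log2 fold change was 12.63, and -0.01 without IAA library 2, which holds nearly all its reads (-0.01 to 13.21 with each library left out). Same-numbered IAA and mock libraries did not deviate together (r = -0.0738, -0.00326 and -0.0139, across genes), and no library correlated best with its own number. Positive values were found for IAA library 1 with mock library 2 (0.149), IAA library 2 with mock library 3 (0.108) and IAA library 3 with mock library 1 (0.174). Whether these pairs shared a batch of seedlings was not tested. A replicate block by library number, which does not cover those pairs, gave 1927 genes, 1813 of them shared, and 22 and 24 interactions. In the 250 bases before the start alone, TGTCTC stood in 14.3% of risen, 10.4% of fallen and 10.6% of all windows, TGTCNN in 77.3%, 75.4% and 74.9%, TATAAA in 48.6%, 54.5% and 46.7%, and TGTCGG and CACGTG in 4.67% and 7.41% of all. Genes under 1 CPM entered only the fit with no filter.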

Other observations

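In some families outside the lists several members were called, most of them in 1 direction. These families were chosen after their values were seen, so their counts are descriptions. Over all genes tested 4.92% rose and 4.74% fell. Of 15 tested RTFL genes, which encode small peptides of the ROTUNDIFOLIA4 family, 8 rose and 1 fell. RTFL10 had 90.2, 82.2 and 91 CPM in IAA libraries against 13.7, 12.1 and 12.3 CPM in mock libraries, RTFL19 and RTFL13 had log2 fold changes of 3.51 and 3.22, and RTFL6 of -1.50. Of 8 SWEET sugar transporter genes 5 fell, with SWEET12, which acts in phloem loading, at 39.2, 39.9 and 35.3 CPM in IAA libraries against 78.8, 81 and 76.1 CPM in mock libraries. Of 34 UMAMIT genes, several of which encode amino acid exporters, 9 fell and 2 rose. UMAMIT17 had 3.35, 5.62 and 6.16 CPM in IAA libraries against 23.8, 21.4 and 25.8 CPM in mock libraries. Of 9 MLP genes 6 fell, MLP168 with a log2 fold change of -2.84.

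Neighbouring genes moved together in 19 runs of at least 3 genes that rose (the longest of 4) and 9 runs that fell (the longest of 5). The genes AT5G47980, CYP705A5, CYP708A2 and THAS1, known as the thalianol cluster of a root triterpene, fell side by side on chromosome 5 (19428888 to 19461706). How many such runs a random order would give was not tested.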
